A study of Homo sapiens with 6 samples.

Results

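Readthrough transcripts are RNAs that run from one gene through its polyadenylation site and into the next gene on the same strand. In the deposited table of 24054 genes, 72 had the word readthrough in their description, and all 72 were taken. The file listed 25 of them as protein coding and 47 as non-coding, and 25 were described as candidates for nonsense-mediated decay. Most ids join the names of 2 parent genes, upstream gene first, and 4 ids join 3 names. LOC100630923 names its parents only in its description, and IQCJ-SCHIP1-AS1 is annotated as antisense to a readthrough.

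The RNA came from A2780, a human ovarian cancer cell line labelled as wild type, so all samples share one line. A control group received DMSO, the solvent, and the other group received SCR-6920 at 1 µM for 48 h, with 3 samples in each. SCR-6920 inhibits PRMT5, an enzyme that places symmetric dimethyl groups on arginines of histones, spliceosomal Sm proteins and other RNA-binding proteins. The labels do not say whether the samples came from separate cultures, so the p-values measure only the spread between these samples. Totals ran from 38149448 to 39749993 counts per sample. Of 11 epithelial and ovarian carcinoma markers found in the table, KRT7 and ESR1 had no count in any sample and KRT8 and KRT18 averaged 1.19 and 1.71 FPKM, whereas among 3 mesenchymal markers VIM averaged 1385, CDH2 27.8 and FN1 0.0201 FPKM. The leukocyte marker PTPRC and the endothelial markers CDH5 and VWF had no count, while CD68 averaged 1.51 FPKM, ESAM 0.167 FPKM and the fibroblast marker COL1A2 2.29 FPKM.

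Transcription of a coding gene normally ends when the cleavage and polyadenylation machinery cuts the nascent RNA at its poly(A) signal, after which the exonuclease XRN2 degrades the remaining strand and the polymerase is released. Where the signal is skipped, the polymerase enters the next gene, and splicing can join exons of both genes in one RNA. Such RNAs often lose or shift a reading frame and can then be degraded by nonsense-mediated decay, a translation-dependent surveillance pathway. A readthrough RNA begins at the start of its upstream parent in many cases, and it shares exons with both parents. Reads in shared exons cannot be told apart by gene, and no source used here says how the authors' counting assigned them, so each value below is the count assigned to a row of the table.

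The shared starts can be read in the RefSeq promoters on build GRCh38.p14. Among 43 readthroughs with a start there and one for the upstream parent, 18 had the same start as that parent, 14 lay within 250 bases of it and 11 lay farther away. Against later-named parents, 1 of 32 starts was the same, and the median distance was 32727 bases. The 250 bases before the start are shown for the 4 most abundant readthroughs that passed the test described below, and for the own starts of 3 downstream parents. They are printed because a shared window means that RNA from this start can be counted for the readthrough or for its upstream parent. Capitals mark GGGCGG or its reverse complement CCGCCC (a GC box), and CCAAT or its reverse complement ATTGG.
DUS4L-BCAP29: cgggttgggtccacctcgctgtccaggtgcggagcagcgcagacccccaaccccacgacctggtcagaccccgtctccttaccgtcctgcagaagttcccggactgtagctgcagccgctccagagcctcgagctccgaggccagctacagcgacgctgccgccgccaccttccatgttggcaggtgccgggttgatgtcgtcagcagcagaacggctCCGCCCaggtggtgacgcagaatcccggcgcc
BCAP29: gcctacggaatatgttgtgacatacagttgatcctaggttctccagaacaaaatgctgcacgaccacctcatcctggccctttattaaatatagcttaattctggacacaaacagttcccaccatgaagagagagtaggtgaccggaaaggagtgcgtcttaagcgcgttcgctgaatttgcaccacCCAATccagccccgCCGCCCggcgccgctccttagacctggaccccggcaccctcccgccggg
ZNF8-ERVK3-1: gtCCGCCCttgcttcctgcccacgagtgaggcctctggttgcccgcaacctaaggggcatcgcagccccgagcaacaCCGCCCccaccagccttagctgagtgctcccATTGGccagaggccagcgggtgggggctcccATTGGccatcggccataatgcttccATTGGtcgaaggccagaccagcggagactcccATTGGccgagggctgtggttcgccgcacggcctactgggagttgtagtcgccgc
ERVK3-1: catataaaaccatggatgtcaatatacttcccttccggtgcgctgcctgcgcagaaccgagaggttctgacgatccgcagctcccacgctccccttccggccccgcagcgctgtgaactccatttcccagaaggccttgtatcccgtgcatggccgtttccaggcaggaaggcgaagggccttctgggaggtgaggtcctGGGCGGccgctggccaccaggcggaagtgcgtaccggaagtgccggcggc
ARMCX5-GPRASP2: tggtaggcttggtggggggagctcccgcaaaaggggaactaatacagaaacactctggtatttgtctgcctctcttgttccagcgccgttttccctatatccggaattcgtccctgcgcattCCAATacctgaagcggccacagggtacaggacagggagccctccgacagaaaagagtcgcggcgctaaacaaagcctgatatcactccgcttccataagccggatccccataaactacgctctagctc
GPRASP2: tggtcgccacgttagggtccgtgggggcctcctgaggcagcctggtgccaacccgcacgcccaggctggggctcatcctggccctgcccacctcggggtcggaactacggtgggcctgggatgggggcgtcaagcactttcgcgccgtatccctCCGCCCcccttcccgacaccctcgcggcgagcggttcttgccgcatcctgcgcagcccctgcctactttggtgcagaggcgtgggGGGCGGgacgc
STAG3L5P-PVRIG2P-PILRB: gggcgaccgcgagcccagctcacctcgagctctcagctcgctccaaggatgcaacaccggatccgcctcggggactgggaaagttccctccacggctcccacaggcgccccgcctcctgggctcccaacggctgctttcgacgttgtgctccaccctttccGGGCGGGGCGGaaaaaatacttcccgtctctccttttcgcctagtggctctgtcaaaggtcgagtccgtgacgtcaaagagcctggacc
The DUS4L-BCAP29 window, chr7:107563721-107563970 on the plus strand, is letter for letter that of DUS4L, and the nearer of the BCAP29 starts, with its window at chr7:107579757-107580006, lies 16036 bases away. The ZNF8-ERVK3-1 window, chr19:58278716-58278965, is shifted by 11 bases from that of ZNF8 and holds 4 CCAAT motifs and 2 GC boxes, while the ERVK3-1 window at chr19:58305127-58305376 lies 26411 bases away. ARMCX5-GPRASP2 has 4 annotated starts. The one printed, chrX:102599265-102599514, is that of ARMCX5, and another has the same window as GPRASP2, chrX:102712198-102712447. The STAG3L5P-PVRIG2P-PILRB window, chr7:100335815-100336064, holds 2 overlapping GC boxes, and all windows named here are on the plus strand. Across 35116 windows of the same length in the RefSeq table, 42.6% held a GC box and 32.0% held a CCAAT motif on either strand, so these motifs are common and a match is only a description.

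Most readthrough rows were nearly empty in A2780. No count fell on 12 of the 72 in any sample, among them HOXA10-HOXA9, RAB4B-EGLN2 and PDCD6-AHRR, and a count of 0 allows at most 0.0755 to 0.0786 CPM per sample (3 counts, counting error only). Another 32 had counts but averaged fewer than 10, and 28 averaged at least 10. Only 6 averaged at least 100 counts. CPM values use library sizes scaled by TMM factors. Summed over all 72, the readthrough rows reached 69.5, 69.4 and 72.2 CPM with DMSO and 75.1, 77.0 and 76.0 CPM with SCR-6920. The groups did not overlap in that sum. Without STAG3L5P-PVRIG2P-PILRB, the most abundant row, the sums were 45.4, 44.0 and 44.3 CPM with DMSO and 44.9, 48.3 and 43.5 CPM with SCR-6920, and the groups overlapped.

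**Figure D1:**
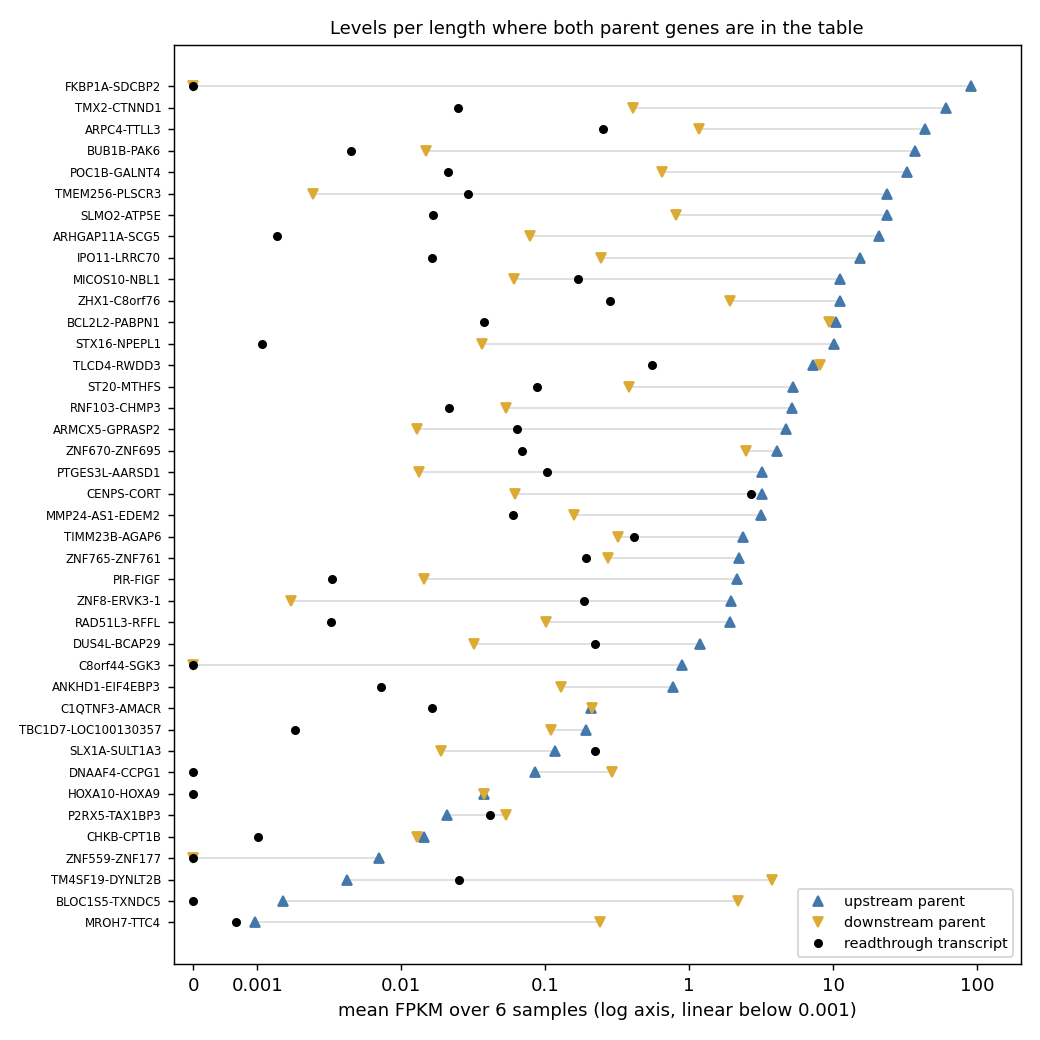
Mean FPKM over 6 samples (x axis, logarithmic, linear below 0.001) of the upstream parent, the downstream parent and the readthrough transcript for 40 readthroughs (y axis) with both parents in the table, ordered by upstream parent. The upstream parent (triangle up) lies to the right of the downstream parent (triangle down) in most of them, with medians of 3.16 and 0.110 FPKM over all 41 such readthroughs.

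Of 146 parent names in the ids, 106 matched a gene of the table and 40 were not analysed here. Both parents could be read for 41 readthroughs. On the per-length scale (FPKM), the upstream parent was higher than the downstream parent in all 6 samples for 29 of these 41, the downstream parent was higher in all 6 for 4, and neither held for 8. Median levels were 3.16 FPKM for upstream parents, 0.110 FPKM for downstream parents and 0.0247 FPKM for the readthroughs. FKBP1A, which encodes the FK506-binding protein FKBP12, averaged 90.4 FPKM, whereas its downstream neighbour SDCBP2 and FKBP1A-SDCBP2 had no counts. TMX2, a thioredoxin-related membrane protein, averaged 60.7 FPKM, CTNND1, which encodes p120 catenin, averaged 0.411 FPKM, and TMX2-CTNND1 averaged 0.0247 FPKM. CENPS-CORT is a different case, since it averaged 2.70 FPKM beside 3.21 FPKM for the kinetochore gene CENPS.

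Parents with more of their exon bases also covered by the readthrough had lower levels. In GENCODE v29, on GRCh38, this share could be computed for 71 parent and readthrough pairs from 44 readthroughs. The median level was 4.07 FPKM for 25 parents that share under 20% of their exon bases, 0.312 FPKM for 26 that share 20 to 50%, and 0.0855 FPKM for 20 that share at least 50%. Parents under 0.1 FPKM numbered 4, 12 and 10 in these classes. Upstream parents made up 18, 12 and 8 of them, so position and shared length vary together, and the part of the counting rule in these levels was not tested. The split values were chosen after the levels were seen, and no source used here names the authors' annotation. Readthrough lengths implied by the deposited FPKM differ from the GENCODE v29 exon bases at some loci. TMX2-CTNND1 has 6251 against 585, ARMCX5-GPRASP2 9709 against 2711 and ZNF670-ZNF695 1119 against 3197. Others are close, such as POC1B-GALNT4 with 5496 against 5500. Some of these shares may therefore not be those of the gene models that were counted.

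After 48 h of SCR-6920, few readthrough transcripts passed the test for a change, and those that did went both ways. Of the 72, 27 had enough counts to be tested, and with edgeR's quasi-likelihood test at a Benjamini-Hochberg adjusted p under 0.05 over all 14233 genes tested, 2 rose, 3 fell and 22 did not pass. Of the 3 that fell, 2 lay over the low-count filter level of 0.257 CPM in every sample of the DMSO group alone. Their entry to the test thus leaned on the group where they are high. Those that passed are 18.5% of those tested, against 42.0% of all genes tested (20.6% higher and 21.3% lower). Abundance differs between these sets: 20 of the 27 averaged under 2 CPM, and of these 4 passed, while 331 of 2861 tested genes under 2 CPM passed (11.6%). This split at 2 CPM was chosen after the values were seen. The log2 fold changes of SCR-6920 over DMSO ran from -1.40 to 1.30 with a median of 0.16, beside a median of -0.0019 over all tested genes. The groups did not overlap for 4 higher and 5 lower readthroughs, out of 27, against 50.6% of all tested genes. In simulated counts of this design, edgeR recovered 79.2% of 48 genes changed 2-fold and 98.0% of 49 changed 3-fold, drawn over all abundances. Far fewer genes were changed there than the 42.0% called here. Recovery at the low abundance of the readthroughs was not estimated.

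**Figure D2:**
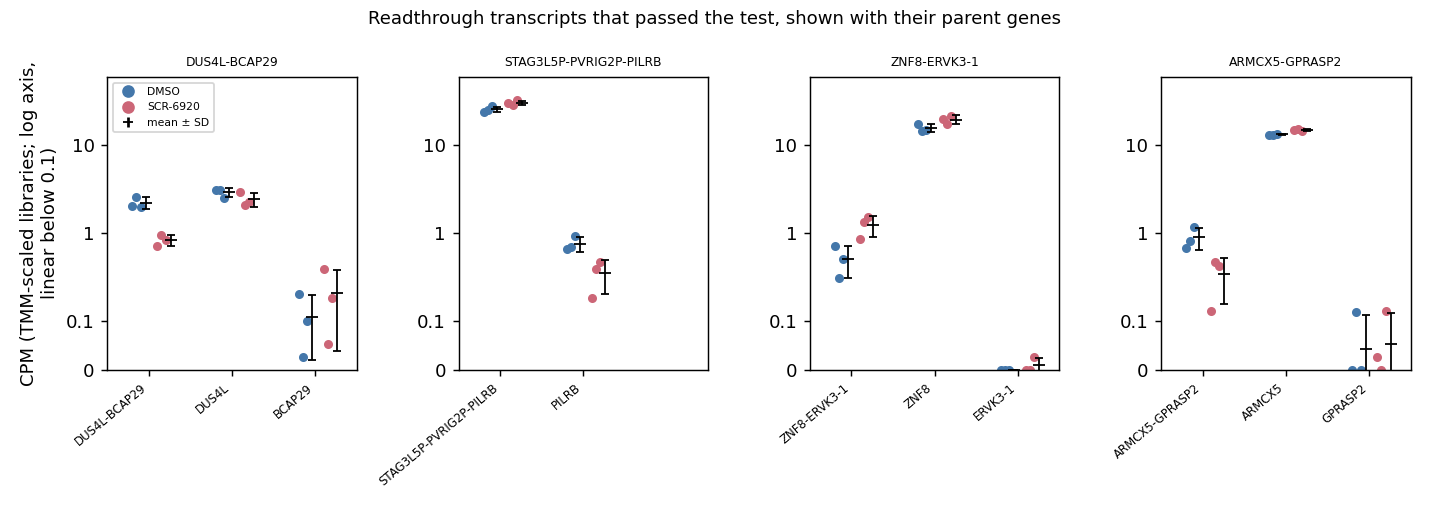
Abundance in CPM (y axis, logarithmic, linear below 0.1) of 4 readthroughs that passed the test and of their parents in the table, for each DMSO and SCR-6920 sample, with mean ± SD of 3 samples. Levels are to be compared within a gene; DUS4L-BCAP29 lay at 1.98 to 2.60 CPM with DMSO and at 0.708 to 0.963 CPM with SCR-6920, while DUS4L overlapped between groups.

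DUS4L-BCAP29 had the smallest adjusted p. It joins DUS4L, which encodes a tRNA dihydrouridine synthase, to BCAP29, which encodes a membrane protein of the endoplasmic reticulum. Its counts were 81, 102 and 79 with DMSO and 27, 37 and 32 with SCR-6920. All treated samples lay below all controls. In bulk RNA, fewer cells with a transcript and less of it per cell cannot be told apart. The mean fell from 2.21 ± 0.34 to 0.837 ± 0.128 CPM (SD, n = 3 each), a log2 fold change of -1.40 ± 0.30 (SE) with an edgeR adjusted p of 0.000318. The fall passed the test in each of the 6 fits that left out 1 sample, with adjusted p between 0.000505 and 0.00434. DUS4L, whose start it shares, had 122, 123 and 100 counts with DMSO and 113, 80 and 87 with SCR-6920. The groups overlapped, and its log2 fold change of -0.25 ± 0.22 did not pass (edgeR adjusted p = 0.377). BCAP29 had between 1 and 15 counts per sample and was not tested. By the deposited FPKM, DUS4L-BCAP29 is 6866 bases long, DUS4L 2266 and BCAP29 4984. The readthrough length is thus 0.947 of the summed parent lengths, so the split of counts among these rows is uncertain.

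ARMCX5-GPRASP2 also fell, but it lay over the low-count filter level in every sample of the DMSO group alone, where it was higher. With no such filter its edgeR adjusted p was 0.0214. ARMCX5 is an armadillo-repeat gene of the X chromosome, and GPRASP2 encodes a sorting protein for G protein-coupled receptors. The readthrough had 27, 32 and 47 counts with DMSO and 5, 18 and 16 with SCR-6920. These groups did not overlap, with the first treated sample lowest. The log2 fold change was -1.38 ± 0.49 with an edgeR adjusted p of 0.0231, which became 0.134 without DMSO replicate 3 and, leaving out SCR-6920 replicate 1, 0.136. ARMCX5 had 527, 521 and 535 counts with DMSO and 572, 589 and 556 with SCR-6920, a log2 fold change of 0.17 ± 0.09 that did not pass (edgeR adjusted p = 0.153). GPRASP2 had at most 5 counts in any sample.

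STAG3L5P-PVRIG2P-PILRB, the most abundant readthrough, rose by a small amount. It joins 2 pseudogenes, one related to the cohesin gene STAG3, to PILRB, which encodes an activating receptor of the immunoglobulin family. Its levels were 24.1, 25.4 and 27.9 CPM with DMSO and 30.2, 28.7 and 32.5 CPM with SCR-6920. The highest control lay just under the lowest treated sample. The log2 fold change was 0.24 ± 0.07 with an edgeR adjusted p of 0.00766, and 0.0682 without SCR-6920 replicate 3. PILRB itself had 26, 27 and 37 counts with DMSO and 7, 15 and 18 with SCR-6920. Those groups did not overlap either, with the treated samples lower, but the log2 fold change of -1.11 ± 0.49 did not pass (edgeR adjusted p = 0.0663). In GENCODE v29 the readthrough covers 49.2% of the exon bases of PILRB, so the split of counts between the 2 rows is uncertain.

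ZNF8-ERVK3-1 rose together with its upstream parent. ZNF8 encodes a zinc finger protein, and ERVK3-1 is a gene derived from an endogenous retrovirus of the HERV-K group. The readthrough had 28, 12 and 20 counts with DMSO and 33, 52 and 58 with SCR-6920. In CPM the controls lay at 0.707, 0.306 and 0.501 and the treated samples at 0.865, 1.35 and 1.52, without overlap. Its log2 fold change was 1.30 ± 0.42 (edgeR adjusted p = 0.0133), and the adjusted p was 0.0617 without DMSO replicate 2, 0.0552 without SCR-6920 replicate 2 and 0.0711 without SCR-6920 replicate 3. ZNF8 rose by a log2 fold change of 0.33 ± 0.09 (edgeR adjusted p = 0.00520), from 15.7 ± 1.7 to 19.7 ± 2.2 CPM, although 1 control sample lay within the treated range, and its adjusted p was 0.0605 without SCR-6920 replicate 3. ERVK3-1 had 1 count in 1 sample.

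MICOS10-NBL1 likewise lay over the low-count filter level in every sample of the DMSO group alone. TLCD4-RWDD3 and ZNF625-ZNF20 did so in every sample of the SCR-6920 group alone. MICOS10-NBL1 joins a gene for a cristae-organising protein of the mitochondrial inner membrane to NBL1, an antagonist of bone morphogenetic proteins. It had 17, 23 and 22 counts with DMSO and 13, 8 and 4 with SCR-6920, a log2 fold change of -1.25 ± 0.57 that did not pass (edgeR adjusted p = 0.0766). Its parent MICOS10 rose, from 40.3 ± 2.7 to 48.6 ± 2.3 CPM (log2 fold change 0.27 ± 0.06, edgeR adjusted p = 0.000332). ZNF625-ZNF20 had 12, 28 and 6 counts with DMSO and 28, 25 and 39 with SCR-6920, and its groups overlapped (log2 fold change 1.04 ± 0.51, edgeR adjusted p = 0.0998). Without DMSO replicate 2, its highest control, the log2 fold change was 1.81 (edgeR adjusted p = 0.0188). Leaving out the highest control raises the fold by construction, and ZNF625-ZNF20 passed in only 1 of 12 alternative settings.

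**Figure D3:**
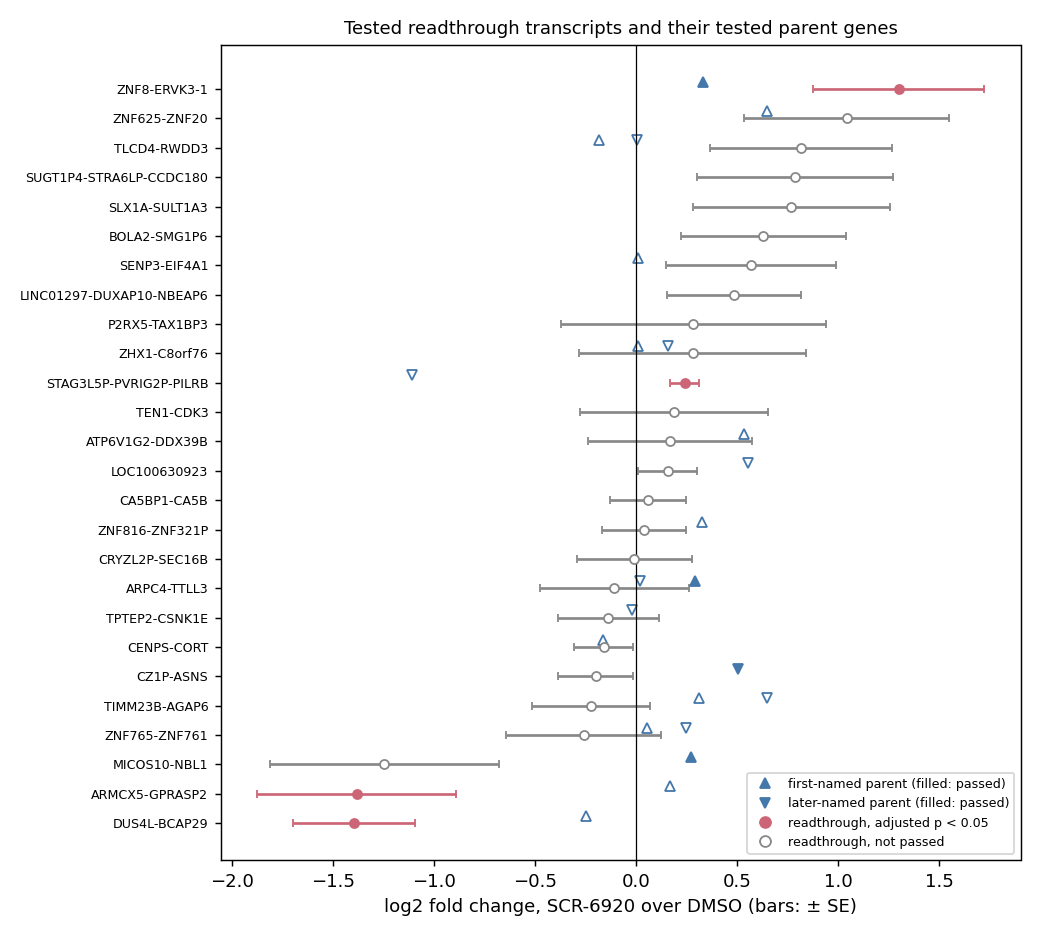
Log2 fold change of SCR-6920 over DMSO (x axis) for 26 tested readthroughs (circles with SE bars, filled red where the edgeR adjusted p was under 0.05) and for their tested parents (triangles, filled where they passed). Circles spread from -1.40 to 1.30, and among parents of the readthroughs shown only ZNF8, ARPC4, ASNS and MICOS10 passed.

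Most of the abundant readthroughs did not pass. LOC100630923, described as a readthrough into PRKRIP1, which encodes a spliceosome-associated protein, had 232, 201 and 296 counts with DMSO and 270, 233 and 281 with SCR-6920. Its groups overlapped, with a log2 fold change of 0.16 ± 0.15 (edgeR adjusted p = 0.420). PRKRIP1 itself had 42, 47 and 40 counts with DMSO and 72, 65 and 46 with SCR-6920, and it was not among the parents that passed. CENPS-CORT, which joins a kinetochore gene to the neuropeptide gene for cortistatin, had 214, 226 and 227 counts with DMSO and 203, 178 and 195 with SCR-6920. Here all treated samples lay below the controls, but the log2 fold change of -0.16 ± 0.15 did not pass (edgeR adjusted p = 0.400). CENPS itself went from 3.08 ± 0.87 to 2.74 ± 0.65 CPM, with overlap, and CORT averaged 0.0563 CPM over all samples.

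CZ1P-ASNS had 174, 135 and 165 counts with DMSO and 153, 108 and 137 with SCR-6920 (log2 fold change -0.20 ± 0.19, edgeR adjusted p = 0.410). Its groups overlapped, whereas ASNS, which encodes asparagine synthetase, lay at 146, 140 and 167 counts with DMSO and at 194, 234 and 192 with SCR-6920, without overlap. ASNS rose by a log2 fold change of 0.50 ± 0.16 (edgeR adjusted p = 0.0120, and 0.0852 without SCR-6920 replicate 2). ZNF816-ZNF321P had 184, 126 and 121 counts with DMSO and 112, 190 and 126 with SCR-6920, and CA5BP1-CA5B, which reaches into a mitochondrial carbonic anhydrase gene, had 154, 140 and 124 with DMSO and 152, 111 and 157 with SCR-6920. Both overlapped, with log2 fold changes of 0.04 ± 0.21 and 0.06 ± 0.19 (edgeR adjusted p = 0.905 and 0.841). ZNF816 itself went from 8.65 ± 1.68 to 10.8 ± 1.6 CPM and did not pass (edgeR adjusted p = 0.0559).

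TPTEP2-CSNK1E, which reaches into a casein kinase gene, had 76, 88 and 88 counts with DMSO and 83, 78 and 60 with SCR-6920. CRYZL2P-SEC16B, which reaches into a gene for endoplasmic reticulum exit sites, had 58, 86 and 57 with DMSO and 55, 67 and 71 with SCR-6920. Their groups overlapped, with log2 fold changes of -0.14 ± 0.25 and -0.01 ± 0.29 (edgeR adjusted p = 0.693 and 0.982). LINC01297-DUXAP10-NBEAP6 had 70, 59 and 52 counts with DMSO and 58, 139 and 48 with SCR-6920. Its log2 fold change of 0.48 ± 0.33 (edgeR adjusted p = 0.258) rests on SCR-6920 replicate 2, the other treated samples lying within or below the control range. CSNK1E went from 2.78 ± 0.42 to 2.74 ± 1.01 CPM, and SEC16B had 1 count in all.

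The readthroughs were also split by annotation, into groups too small to be read against each other. Among 8 tested candidates, none rose, 1 fell and 7 did not pass, with a median log2 fold change of 0.23. All 8 averaged under 2 CPM, where 11.6% of all tested genes passed, so 1 of 8 is near that background. Among the other 19, 2 rose, 2 fell and 15 did not pass, with a median of 0.04. That is 21.1% called, against 42.0% of all tested genes. Of these 19, 12 averaged under 2 CPM and 3 of those passed, against the same 11.6%. SLX1A-SULT1A3 and SENP3-EIF4A1 were the candidates whose treated samples all lay above the controls. SENP3-EIF4A1, from a SUMO protease gene into the gene of the translation initiation helicase eIF4A1, had 24, 26 and 19 counts with DMSO and 32, 34 and 33 with SCR-6920, and SLX1A-SULT1A3 had 17, 15 and 11 with DMSO and 25, 21 and 25 with SCR-6920. Their log2 fold changes of 0.57 ± 0.42 and 0.77 ± 0.49 did not pass (edgeR adjusted p = 0.299 and 0.215). By the file's type column, 12 readthroughs listed as coding were tested, with none higher and 2 lower (16.7% called). Of 15 listed as non-coding, 2 were higher and 1 lower (20% called), both against 42.0% of all tested genes. Under 2 CPM lay 9 of the 12, of which 2 passed, and 11 of the 15, of which 2 passed, against the same 11.6%.

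The parent genes were tested in larger numbers. Of the 106 matched parents, 67 were tested, and 8 rose, 8 fell and 51 did not pass, or 23.9% called against 42.0% of all tested genes (20.6% higher and 21.3% lower). Among 42 tested upstream parents 6 rose and 8 fell, and among 25 tested downstream parents 2 rose and none fell. The downstream parents were the scarcer set, with 12 of 25 under 2 CPM against 5 of 42. BUB1B, the spindle checkpoint kinase gene upstream of PAK6, fell from 154 ± 5 to 119 ± 4 CPM (log2 fold change -0.38 ± 0.04, edgeR adjusted p = 7.49e-10). IPO11, an importin gene, fell from 81.1 ± 0.8 to 60.1 ± 2.6 CPM, and PDCD6, which encodes the calcium-binding protein ALG-2, fell from 67.4 ± 3.0 to 50.5 ± 0.4 CPM (log2 fold changes -0.43 ± 0.05 and -0.42 ± 0.05, edgeR adjusted p = 2.76e-09 and 2.38e-08). Their readthroughs BUB1B-PAK6 and IPO11-LRRC70 averaged 0.667 and 1.17 counts per sample, and PDCD6-AHRR had none, so no change of these could be tested. ARPC4, a subunit gene of the Arp2/3 actin-nucleating complex, rose from 65.5 ± 4.0 to 80.2 ± 3.2 CPM (log2 fold change 0.29 ± 0.05, edgeR adjusted p = 9.13e-06). ARPC4-TTLL3 did not pass, at a log2 fold change of -0.11 ± 0.37 (edgeR adjusted p = 0.842). At the ZNF670-ZNF695 locus the parents moved in opposite directions: ZNF670 fell from 19.0 ± 1.1 to 15.1 ± 1.4 CPM and ZNF695 rose from 7.78 ± 0.20 to 10.8 ± 0.7 CPM (edgeR adjusted p = 0.00314 and 0.000957), while their readthrough averaged 3.00 counts.

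**Figure D4:**
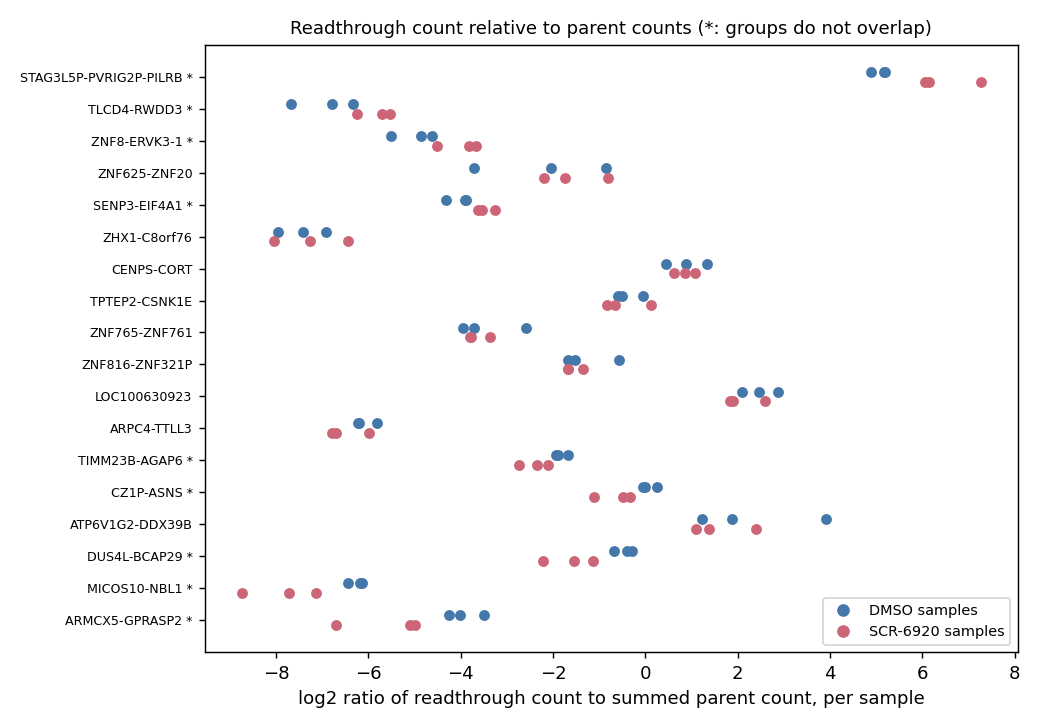
Log2 ratio of the readthrough count to the summed count of its parents in the table (x axis) for each of the 3 DMSO and 3 SCR-6920 samples, for 18 readthroughs (y axis) with enough counts in both. An asterisk marks readthroughs whose groups did not overlap, 4 higher and 5 lower with SCR-6920; mean differences ran from -1.67 for ARMCX5-GPRASP2 to 1.41 for STAG3L5P-PVRIG2P-PILRB.

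The count of a readthrough relative to its parents does not depend on library size, since both come from the same sample. It was computed for the 19 readthroughs with a mean of at least 10 counts and a parent with at least 10. The log2 ratio was lower with SCR-6920 in all samples for 6, higher in all samples for 4 and overlapped for 9, and the median difference was -0.30. No p-value is given, since 3 against 3 samples cannot go below 0.1 in an exact two-sided permutation test. DUS4L-BCAP29 counts equalled 62.5%, 82.3% and 76.1% of its parents' counts with DMSO and 21.4%, 45.5% and 34.4% with SCR-6920. The ratio was lower in every treated sample, though the split of counts between readthrough and parents is uncertain at this locus. ZNF8-ERVK3-1 went from 4.08%, 2.18% and 3.44% to 4.36%, 7.88% and 7.05%, a mean log2 difference of 0.99. The ratio was thus higher with SCR-6920 although ZNF8 also rose. CZ1P-ASNS, at a log2 difference of -0.71, and MICOS10-NBL1, at -1.61, are loci where the parent rose. For STAG3L5P-PVRIG2P-PILRB the ratio is to PILRB alone and for CZ1P-ASNS to ASNS alone, the other parents not being analysed here. Likewise, the upstream parent alone was used for SENP3-EIF4A1, ATP6V1G2-DDX39B, ZNF816-ZNF321P and ZNF625-ZNF20. For TPTEP2-CSNK1E and LOC100630923 the ratio is to CSNK1E and PRKRIP1 alone.

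Genes linked to transcript termination and to decay, from lists of 36 and 22 genes, were all expressed above the filter. Being listed does not mean that a gene, such as SECISBP2, carries out these steps itself. In the termination list 13 rose, 6 fell and 17 did not pass, or 52.8% called against 42.0% of all tested genes, with a median log2 fold change of 0.04. CPSF1, a large subunit of the cleavage and polyadenylation specificity factor, fell from 132 ± 5 to 89.5 ± 4.6 CPM (log2 fold change -0.56 ± 0.04, edgeR adjusted p = 1.3e-12). CSTF2, which binds the GU-rich element past the cleavage site, fell from 43.0 ± 0.9 to 28.3 ± 0.7 CPM (-0.61 ± 0.06, edgeR adjusted p = 7.85e-10), and the poly(A) polymerase gene PAPOLA fell by 0.29 ± 0.03 on the log2 scale. CSTF1, from the same complex as CSTF2, rose from 38.9 ± 0.6 to 51.0 ± 2.6 CPM (0.39 ± 0.06, edgeR adjusted p = 7.66e-07). WDR33, which reads the AAUAAA signal, and SCAF4, which restrains early polyadenylation, rose by 0.28 ± 0.04 and 0.24 ± 0.04 on the log2 scale. In the decay list 7 rose, 7 fell and 8 did not pass, or 63.6% called against the same 42.0%, with a median of 0.02. No gene of either list averaged under 2 CPM, so these shares are of abundant genes. PNRC2, SMG9 and SECISBP2 fell, by 0.28 ± 0.04, 0.37 ± 0.06 and 0.26 ± 0.05 on the log2 scale. RBM8A and CASC3 of the exon junction complex and the helicase gene DHX34 rose, by 0.23 ± 0.03, 0.21 ± 0.04 and 0.29 ± 0.05. The edgeR adjusted p of these 6 lay between 7.22e-07 and 4.70e-05. The part of these genes in the readthrough counts was not tested.

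Below the filter, 1 of the 33 untested readthroughs with counts had groups that did not overlap. The same share over all untested genes was not computed, so this count is not read as a result. ATRIP-TREX1, which joins a partner of the checkpoint kinase ATR to the DNA exonuclease gene TREX1, had 2, 2 and 1 counts with DMSO and 7, 30 and 13 with SCR-6920. The treated samples were all higher, with replicate 2 the highest. With no low-count filter its log2 fold change was 3.28 with an edgeR adjusted p of 0.00198, and it was singled out after its values were seen. ATRIP had 3 to 12 counts with DMSO and 4 to 9 with SCR-6920. The other untested rows totalled at most 65 counts over the 6 samples, which limits what could be detected in them.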

How the data were processed

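Per the labels' protocols, total RNA was extracted with a column kit and libraries were made with a stranded Illumina mRNA kit. HISAT2 and HTSeq were used, per the submitters' processing notes, which name the mouse build GRCm38 although the gene numbers are human. Versions, annotation, strand setting and overlap mode are in none of the sources used here. The authors deposited raw counts per gene and FPKM values, which equal counts per length and library total. Counts of all 6 samples were fitted with edgeR 4.0.16 in R 4.3.3 (filterByExpr, TMM, robust quasi-likelihood, group as the only term), with Benjamini-Hochberg adjustment over 14233 genes and a threshold of 0.05. Each SE is the log2 fold change over the root of its F statistic. Alternatives used limma 3.58.1 and DESeq2 1.42.0. Parents were matched by symbol (100) or by an older symbol at the same locus (6). Ratios used a pseudocount of 0.5 counts.

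Replicates differed by 3.71 to 8.81 chi-square units per gene, more than counting noise. On counts simulated for this comparison with 14038 genes, edgeR called 0.0939% of 13843 unchanged genes. One readthrough is counted but not reported here by name, and it is left out of the plots. The members and lists were chosen with earlier results of these data known. Any readthrough could be named. The other readthroughs that passed and the 8 most abundant tested ones that did not are given by sample. Their parents are given by sample, by group mean or by overall mean, and not every parent has values. From the termination and decay lists, up to 3 genes each way by smallest p are given. Other readthroughs and parents (MICOS10-NBL1, ZNF625-ZNF20, SENP3-EIF4A1, SLX1A-SULT1A3, ATRIP-TREX1, FKBP1A, TMX2, BUB1B, IPO11, PDCD6, ARPC4 and the ZNF670 locus) were chosen after their values were seen.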

Additional observations from a re-analysis of the deposited data

How the results depend on the processing

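Of 5 readthroughs that passed, the count was 5 with median-ratio factors, DESeq2 or no low-count filter (there 3 higher, 2 lower), but 2 (1 higher, 1 lower) when genes needed 1 CPM on average and, in 3 samples or more, 10 counts, and 1 (1 higher, 0 lower) with limma on log2(FPKM + 1) at a mean of at least 0.5 FPKM; both settings test fewer genes. Leaving out each sample in turn gave 2 to 6 calls, 0 to 4 higher and 1 to 3 lower. Without SCR-6920 replicate 3 none rose. TLCD4-RWDD3 passed without DMSO replicate 1 (edgeR adjusted p 0.0287) and ZNF625-ZNF20 without DMSO replicate 2 (0.0188). In both cases the sample left out was the highest control, so the fold rises by construction. ATRIP-TREX1 passed in 4 of these edgeR fits, without each DMSO replicate in turn or without SCR-6920 replicate 1 (0.00143 to 0.0115). It passed the low-count filter there only through SCR-6920 samples, where it is high, so these passes are no independent support. DUS4L-BCAP29 passed in 11 of 12 settings and was not tested in the other, limma. Ratios to the downstream parent alone left 1 readthrough higher and 1 lower without overlap, where 4 and 6 stood for summed parents, since few downstream parents had counts. Parents that passed numbered 13 to 21 across settings and all genes 5190 to 6144. No direction reversed. Same-numbered samples deviated with correlations of 0.007, 0.005 and 0.038, so no pairing by number was seen. Correlations over all genes cannot exclude a weak pairing. With the replicate block, 5 readthroughs (2 higher, 3 lower), 18 parents and 6144 genes passed. Precision was limited by depth: 32 readthroughs had counts but averaged fewer than 10, and 12 had none.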
